A study of Homo sapiens with 4 samples.

Results

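RNA sequencing compared DU145 cells kept for 48 h with 120 µM OICR-9429 against DU145 cells kept with the solvent DMSO alone, across every gene with a deposited value in both libraries. Joining the libraries on the Ensembl gene identifier gave 25338 genes, of 27658 with a value anywhere in the series of 4 libraries. A change is the difference of log2(CPM + 1), OICR-9429 minus DMSO, where CPM is the read count of a gene scaled to the total of its library. A gene counted as measured when the higher of the libraries had at least 1 CPM, which left 16120 genes. "Higher" and "lower" below mean a difference of at least 2-fold on that scale. Each side had 1 library, so no difference has a replicate check, no test was possible and no p-value is given. Where a gene has a pair of values, the DMSO library comes first and the OICR-9429 library second. Intervals in parentheses are exact 95% intervals of the ratio of CPM, OICR-9429 to DMSO, and cover counting error only.

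DU145 is an established human line from a metastasis of prostate cancer, with no functional RB1. It was grown in DMEM. OICR-9429 is a small molecule that occupies the arginine-binding pocket of WDR5, where the MLL1 methyltransferase docks. WDR5 holds together the complexes that methylate lysine 4 of histone H3 at active promoters, and it also recruits MYC to chromatin, with ribosomal protein genes among the best described targets. The compound was dissolved at 50 mM in DMSO, and the labels give no final DMSO content for either side. The other 2 libraries of the series are PC-3 cells with DMSO and with 150 µM OICR-9429 in another medium, so line, dose and medium differ together.

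The libraries were deep and alike in size. The DMSO library held 55181000 reads and the OICR-9429 library 56888000, each to the nearest 1000, or 27591000 and 28444000 read pairs. Mitochondrially encoded genes took 5.63% and 5.54% of them. The labelled cell type was checked against marker genes. All 6 epithelial markers were measured. KRT8 was at 562 CPM in the DMSO library and 551 CPM in the treated library, the catenin CTNNA1 at 499 and 656 CPM, and EPCAM at 65.8 and 44.3 CPM. Of these markers KRT19 was past 2-fold higher, at 251 and 516 CPM, and the cadherin CDH1 past 2-fold lower, at 58.4 and 23.4 CPM. Of 10 leukocyte markers 2 were listed and 1, CD14, was measured, at 3.30 and 1.48 CPM. Other markers stood low as well, with the endothelial gene PECAM1 at 1.45 and 1.72 CPM and the fibroblast gene COL1A1 at 10.0 and 3.55 CPM. The target of the compound, WDR5, was at 88.8 and 83.5 CPM.

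Many more genes stood lower than higher with OICR-9429. Of the 16120 measured genes 161 were higher, or 0.999%, and 1291 were lower, or 8.01%. Together they make 9.01%, and each share is the background over all levels for the counts of gene lists below. The share of lower genes varied with mean level, from 15.5% between 3 and 10 CPM to 2.11% between 100 and 300 CPM. A count in a weakly or strongly expressed list is to be read with that in mind. The median change of all measured genes was −0.18, with the middle of the distribution between −0.53 and 0.12. In RNA pooled from all cells, fewer cells with a transcript and less of it per cell cannot be told apart. The balance depended on how the libraries were scaled. TMM scaling, which sets the trimmed mean of all changes to 0, raised the OICR-9429 library by 0.22 on the log2 scale. It left 317 genes higher and 861 lower, so that the share of higher genes among those past 2-fold went from 11.1% to 26.9%. A direction is therefore given for a gene list only where its median was at least 0.25 from 0. The lists were compared too with genes of like level, the median over the measured genes of the same abundance.

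**Figure D1:**
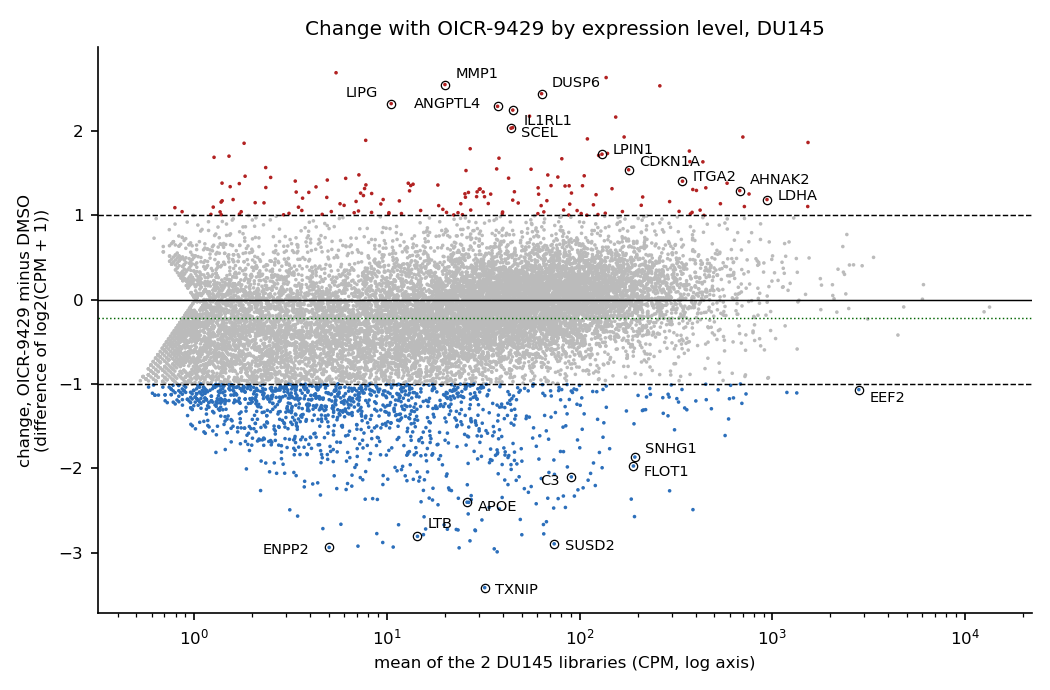
Each point is 1 of the 16120 measured genes in DU145. The horizontal axis is the mean of both libraries in CPM on a log axis and the vertical axis is the change as the difference of log2(CPM + 1). Red and blue points lie past 2-fold (dashed lines), and the dotted green line marks the change that TMM scaling sets to 0 for abundant genes. Blue points crowd the left side, at low abundance, while the right side holds few points past 2-fold, among them EEF2 and LDHA.

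The excess of lower genes was carried by weakly expressed genes. Below a mean of 3 CPM the median change was −0.42 over 3312 genes, of which 387 were lower and 24 higher. Between 3 and 10 CPM it was −0.40 over 2556 genes. The median then went through −0.25 between 10 and 30 CPM and −0.04 between 30 and 100 CPM to 0.07 between 100 and 300 CPM. The 508 genes above 300 CPM had a median of 0.13, with 21 higher and 23 lower. In the same classes the PC-3 medians lay between −0.03 and 0.08, a difference between the lines that was not tested.

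Transcript length and GC content moved with the change as well. Protein-coding genes over 10 CPM were ordered by each property and divided into 4 equal classes. The median change was −0.16 in the class with the shortest transcripts, with 165 of 2468 genes lower. It was 0.05 in the class with the longest, with 67 of 2468 lower. The class with the highest GC content had a median of −0.19, against −0.01 in the lowest. The part of abundance, length and GC content in the results below was not tested. Noncoding genes stood lower than protein-coding genes, with medians of −0.47 for 725 intergenic noncoding RNAs, −0.41 for 803 antisense RNAs and −0.14 for 13225 protein-coding genes. Over 10 CPM the first and last of these medians were −0.41 and −0.06.

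**Figure D2:**
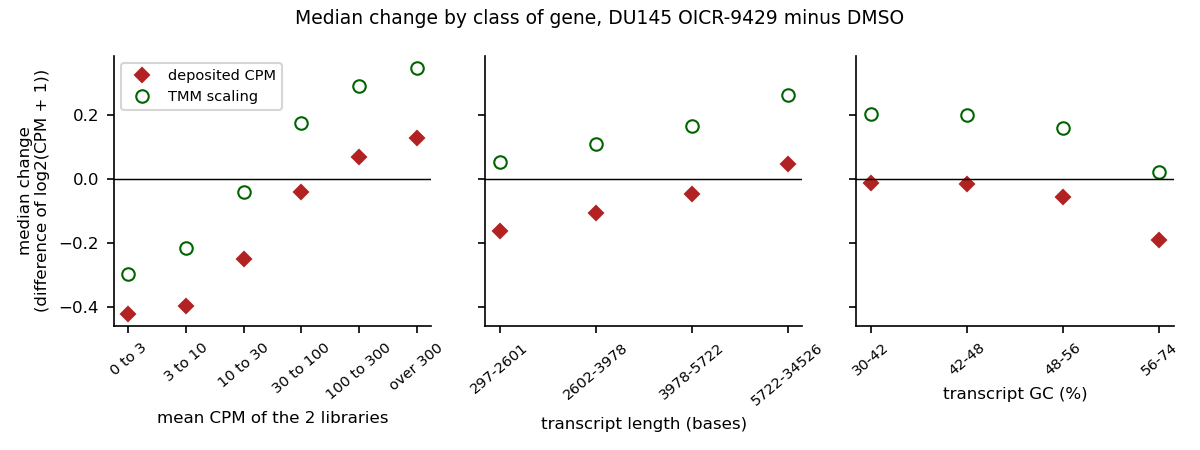
Median change in DU145 (vertical axis, difference of log2(CPM + 1)) for classes of mean CPM over all measured genes, and for 4 equal classes of transcript length and of transcript GC content among protein-coding genes over 10 CPM. Red diamonds are the deposited scale and green circles TMM scaling. Medians climb from −0.42 to 0.13 with abundance and from −0.16 to 0.05 with length, and the class of highest GC content has the lowest median of its panel, −0.19.

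Genes that sense and buffer glucose held the largest change outside cell division. Thioredoxin-interacting protein, TXNIP, is an alpha-arrestin that binds thioredoxin and draws glucose transporters from the cell surface. TXNIP had 59.6 CPM in the DMSO library and 4.68 CPM in the treated library, a ratio of 0.0784 (0.0652 to 0.0936). Its relative ARRDC4 had 12.1 and 3.76 CPM, a ratio of 0.311 (0.248 to 0.387). Both are textbook targets of MondoA, a glucose-responsive partner of MLX that binds pairs of E-boxes (CACGTG and its variants). In PC-3 TXNIP had 96.4 and 32.0 CPM, a change of −1.56, and ARRDC4 had 5.87 and 2.48 CPM, a change of −0.98. Their promoter windows, 250 bases before to 50 bases after the start site, are shown because these arrestins lay low together, with the E-box matches in capitals (RefSeq, GRCh38.p14).
TXNIP, chr1:145996530-145996829, minus strand: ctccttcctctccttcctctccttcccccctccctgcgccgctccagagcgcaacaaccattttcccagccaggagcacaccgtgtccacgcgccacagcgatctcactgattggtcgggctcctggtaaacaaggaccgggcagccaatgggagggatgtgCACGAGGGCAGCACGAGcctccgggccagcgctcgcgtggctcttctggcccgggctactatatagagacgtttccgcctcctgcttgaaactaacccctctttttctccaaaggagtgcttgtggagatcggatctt
ARRDC4, chr15:97960453-97960752, plus strand: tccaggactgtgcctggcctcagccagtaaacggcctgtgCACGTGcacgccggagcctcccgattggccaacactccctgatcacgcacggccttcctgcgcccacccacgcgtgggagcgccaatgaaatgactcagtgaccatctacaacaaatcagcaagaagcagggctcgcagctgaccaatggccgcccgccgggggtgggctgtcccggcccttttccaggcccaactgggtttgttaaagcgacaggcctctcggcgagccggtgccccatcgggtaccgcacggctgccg

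The paired motif, which joins an E-box-like site to another over a short gap as capitalised for TXNIP, was searched on both strands and found in 1 of 2 TXNIP windows, the one shown, and in 0.501% of all 35116 windows. The ARRDC4 window did not hold the paired motif. The single E-box CACGTG was found in the ARRDC4 window, in 0 of 2 TXNIP windows and in 7.26% of all windows. A match says only that these letters are there. The AP-1 motif TGANTCA was in the ARRDC4 window as well, and in 7.71% of all windows, and the CLEAR element of lysosomal genes was in neither gene's windows. The arrestins ARRDC2 and ARRDC3, at 22.6 and 16.1 CPM and at 87.5 and 69.9 CPM, had no match to either E-box motif, and ARRDC2 had the AP-1 motif in 1 of 2 windows.

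Over the 15 genes of the alpha-arrestin, MondoA and ChREBP network the median was −0.32, with 3 lower and 1 higher, against −0.07 for genes of like level. The median lay at −0.10 under TMM scaling. MXD1, which competes with MYC for MAX, was the 1 higher member, at 22.5 and 63.0 CPM. Its relative MXD3 went the other way, at 18.2 and 3.83 CPM, so the MAX partners of this list did not share a direction.

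Genes of the response to low oxygen stood higher. Outside that list, HK2, the hexokinase that traps glucose in the cell, was at 28.0 and 83.9 CPM, a ratio of 2.99 (2.76 to 3.25). LDHA, which turns pyruvate into lactate, was at 572 and 1305 CPM, and PGK1, an ATP-forming step of glycolysis, at 294 and 589 CPM. Both were chosen after their values were seen, and HK2 for the size of its change, so the direction rests on the list alone. Of 24 hypoxia-responsive signalling genes 5 were higher and 0 lower. Their median was 0.34, against 0.03 for genes of like level, and 0.56 under TMM scaling. The 5 were LOX, which crosslinks collagen (39.5 and 103 CPM), the hormone STC1 (71.7 and 172 CPM), the clock repressor BHLHE40 (35.8 and 86.7 CPM), PFKFB4, which sets fructose 2,6-bisphosphate (18.8 and 45.3 CPM), and NDRG1 (214 and 443 CPM). CA12, a surface carbonic anhydrase, had the largest change in the other direction, at 9.13 and 4.46 CPM. The insulin-responsive glucose transporter SLC2A4 was lower, at 6.74 and 0.738 CPM, while its list of 20 glucose and monocarboxylate transporters had a median of −0.35, close to the −0.31 of genes of like level.

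Amino acid handling showed single large changes without a shared direction. PRODH, which starts proline breakdown in mitochondria, stood at 11.6 and 42.5 CPM, and in PC-3 it was under 0.1 CPM in both libraries. Of 25 amino acid transporters 4 were lower and 0 higher, with a median of 0.09. The lower members were weakly expressed, among them SLC38A3, a glutamine carrier, at 6.02 and 0.246 CPM, and SLC43A1, a leucine carrier, at 14.3 and 4.32 CPM. The abundant carriers SLC38A2, at 824 and 1182 CPM, and SLC7A11, the cystine carrier, at 166 and 271 CPM, differed by less than 2-fold. The ATF4 programme, which cells switch on when amino acids run short, had 1 of 29 genes higher and a median of −0.05. That gene was ATF5, at 5.44 and 13.7 CPM. None of 20 cytosolic aminoacyl-tRNA synthetases passed 2-fold, and AARS1 had the largest difference, at 943 and 508 CPM.

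Negative feedback genes of the ERK pathway stood higher. ERK signalling induces its own brakes, phosphatases and Sprouty proteins, together with ETS factors of the PEA3 group, so these transcripts are commonly used as a readout of the pathway. DUSP6, the cytoplasmic ERK phosphatase, was at 19.0 CPM in the DMSO library and 108 CPM in the treated library, a ratio of 5.68 (5.18 to 6.24). SPRY4, a Sprouty inhibitor of RAS activation, was at 17.0 and 43.9 CPM. The list of 19 had 2 higher and 0 lower members and a median of 0.49, against −0.01 for genes of like level, and 16 of the 19 lay above that level. DUSP4, SPRED1, SPRY2 and SPRED2, further feedback inhibitors, had changes between 0.78 and 0.94. The median was 0.71 under TMM scaling and 0.46 when each gene was centred on genes of like level. CCND1, the cyclin D1 gene that growth signals induce, was at 335 and 740 CPM.

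Ligands and immediate early genes of the same signalling chain did not show such a shift. Of 20 immediate early transcription factors 0 passed 2-fold, with a median of −0.08, and EGR1 was at 74.5 and 47.1 CPM. The receptor EGFR was at 608 and 779 CPM. Among 14 EGF receptors and ligands the ligand EGF was lower, at 5.55 and 1.13 CPM, and HBEGF, a heparin-binding ligand, was at 44.4 and 87.2 CPM, short of 2-fold. Of 23 YAP and TEAD targets 1 was lower, FSTL1 at 16.4 and 7.45 CPM. The abundant target CCN1 was at 941 and 500 CPM and the coactivator WWTR1, or TAZ, at 144 and 286 CPM.

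The WNT feedback antagonists NKD1 and NOTUM stood lower. NKD1, which restrains Dishevelled, was at 16.1 and 3.76 CPM, a ratio of 0.234 (0.187 to 0.289), and NOTUM, an enzyme that strips the lipid from WNT ligands, at 5.22 and 0.844 CPM. DKK3 was lower as well, at 29.9 and 11.9 CPM, and so was the receptor FZD4, at 14.2 and 5.31 CPM. The secreted antagonist SFRP1 was higher, at 39.5 and 86.8 CPM. These were all the calls among 35 WNT genes, whose median of −0.34 turned to 0.07 when genes were centred on their level.

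Among 22 NOTCH genes 3 were lower and 0 higher, with a median of −0.44, against −0.33 for genes of like level. The receptor NOTCH3 was at 108 and 42.0 CPM and the ligand DLL3 at 8.59 and 3.34 CPM. NEURL1B, a ubiquitin ligase for NOTCH ligands outside that list, was at 26.2 and 4.68 CPM. In the TGF-beta family 3 of 27 genes were lower, among them the induced matrix protein TGFBI, at 460 and 219 CPM, and FSTL3, an activin antagonist, at 59.6 and 26.8 CPM. Guidance molecules had 6 of 38 lower and 0 higher with a median of −0.38, led by the ephrin EFNB3, at 11.6 and 2.25 CPM, and the semaphorin SEMA6B, at 57.8 and 15.4 CPM. The median for genes of like level was −0.29. Primary cilium genes had a median of −0.42 over 53 genes and 3 lower members, with the motor KIF17 at 11.9 and 3.30 CPM, and their median was −0.08 once centred on level.

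**Figure D3:**
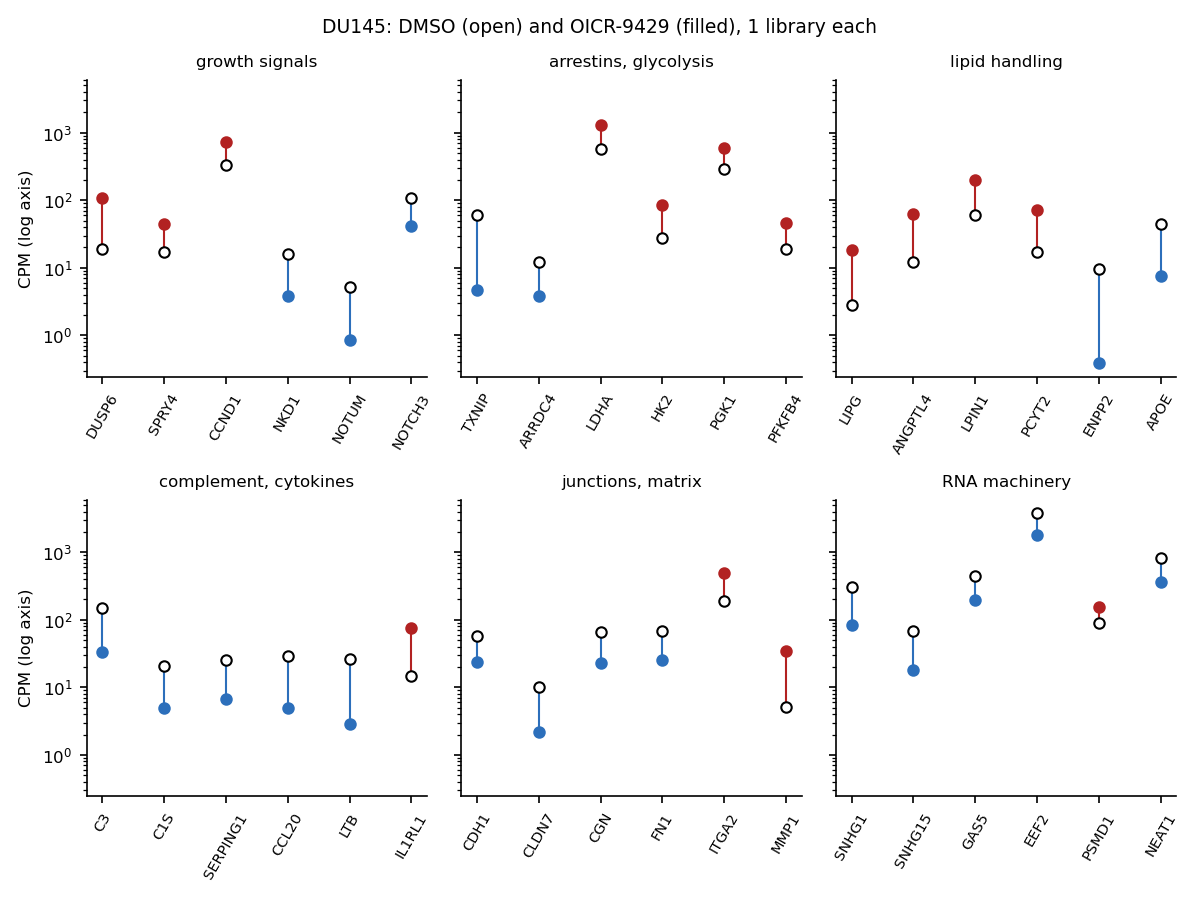
CPM on a log axis for 36 genes in 6 groups of function. Open circles are the DMSO library and filled circles the OICR-9429 library of DU145, 1 library each, red where OICR-9429 stood higher and blue where it stood lower. DUSP6 stands higher by 5.68 times and LIPG by 6.44 times, while TXNIP stands at 0.0784 times and ENPP2 at 0.0401 times the DMSO value.

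Lipid genes outside sterol synthesis held some of the largest changes in both directions. LIPG, the endothelial lipase that acts on high density lipoprotein, was at 2.83 CPM in the DMSO library and 18.2 CPM in the treated library, a ratio of 6.44 (5.07 to 8.28). ANGPTL4, an inhibitor of lipoprotein lipase, was at 12.03 and 63.0 CPM, a ratio of 5.23 (4.65 to 5.90). In PC-3 the same genes were at 1.91 and 4.93 CPM and at 3.24 and 2.81 CPM. LPIN1, the phosphatidate phosphatase that makes diacylglycerol, was at 60.1 and 201 CPM, and G0S2, an inhibitor of the lipase ATGL, at 55.5 and 156 CPM. These were the 4 higher genes among 33 lipases and lipid droplet proteins, whose median was 0.07, against −0.26 for genes of like level.

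The 2 lower genes of that list were ENPP2 and PLIN5. ENPP2 encodes autotaxin, which makes lysophosphatidic acid, and was at 9.64 and 0.387 CPM, a ratio of 0.0401 (0.0198 to 0.0729). PLIN5, a lipid droplet coat protein, was at 3.84 and 0.527 CPM. PCYT2, the rate-limiting enzyme of phosphatidylethanolamine synthesis from ethanolamine, was at 16.9 and 72.8 CPM. PITPNC1, a phosphatidylinositol transfer protein, was at 40.7 and 113 CPM.

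Genes of cholesterol export stood lower. LXR receptors induce these genes when sterols accumulate. APOE, the apolipoprotein that accepts exported cholesterol, was at 44.5 and 7.59 CPM, a ratio of 0.171 (0.147 to 0.197). ABCG1, a pump that loads lipoproteins, was at 9.28 and 2.18 CPM, and MYLIP, a ligase that degrades the LDL receptor, at 32.8 and 17.8 CPM. Of 14 such genes 2 were lower and 0 higher, with a median of −0.31, against −0.01 for genes of like level, and the median lay at −0.11 under TMM scaling. ABCA1, the other main pump of the group, was at 21.5 and 22.5 CPM. In fatty acid oxidation, the carnitine palmitoyltransferase family member CPT1C, found mainly in neurons, and the pyruvate dehydrogenase kinase PDK4 were lower, at 8.23 and 1.58 CPM and at 13.7 and 4.92 CPM, and the peroxisomal oxidase ACOX2 was higher, at 4.10 and 9.42 CPM. The 32 genes of that list had a median of −0.19.

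Lysosomal genes were split. The cathepsins CTSV and CTSF were lower, at 29.9 and 7.31 CPM and at 77.1 and 28.97 CPM, whereas NEU1, the sialidase, was at 52.8 and 105 CPM and CD63, a membrane protein of late endosomes, at 284 and 486 CPM, both short of 2-fold. Over 55 lysosomal genes the median was −0.20, with 3 lower and 0 higher. Of 21 subunits of the vacuolar proton pump 1 was higher, and 17 lay above genes of like level. ATP6V1D, of the catalytic part, was at 56.9 and 102 CPM. Among 36 autophagy genes MAP1LC3A was lower, at 19.6 and 7.24 CPM, and the cargo receptor SQSTM1 was at 485 and 948 CPM, with a list median of 0.02.

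Complement genes stood lower in the treated library. The cascade opens with the C1 proteases and converges on C3, and the genes are expressed in many epithelial lines. C3 was at 148 CPM in the DMSO library and 33.6 CPM in the treated library, a ratio of 0.228 (0.212 to 0.244). The proteases C1S and C1R were at 20.4 and 4.96 CPM and at 17.6 and 5.94 CPM, and their inhibitor SERPING1 at 25.6 and 6.82 CPM. Of 27 complement and coagulation genes 5 were lower and 1 higher, the latter SERPIND1, a thrombin inhibitor, at 0.145 and 1.44 CPM. The list median was −0.43, against −0.11 for genes of like level and −0.26 under TMM scaling.

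Cytokines did not share a direction. Of 10 measured chemokine ligands 4 were lower and 0 higher, with a median of −0.58, which was −0.37 under TMM scaling and −0.43 when centred on level. CCL20, which draws lymphocytes that bear CCR6, was at 29.6 and 4.89 CPM, a ratio of 0.165 (0.137 to 0.198), and CXCL6, which draws neutrophils, at 6.995 and 1.58 CPM. The most abundant ligand, CXCL8, was at 237 and 215 CPM. LTB, which encodes lymphotoxin beta, was at 26.0 and 2.85 CPM, the acute phase gene SAA1, which has a close copy, at 8.81 and 0.492 CPM and IL6 at 25.8 and 9.98 CPM. IL1RL1, the receptor of interleukin 33, was higher, at 15.0 and 74.99 CPM, a ratio of 5.01 (4.51 to 5.58). CSF2, the gene of GM-CSF, was higher as well, at 1.99 and 6.57 CPM. Of 22 NF-kB subunits and feedback inhibitors 1 was lower, TNFAIP2 at 631 and 277 CPM, and the list median was −0.15.

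Single genes of antigen presentation passed 2-fold. Among 23 genes of MHC class I presentation 2 were lower, a share near the background of 8.01%, and 1 was higher. Their median of −0.39, against −0.15 for genes of like level, was −0.17 under TMM scaling and −0.20 when centred by level. PSMB9, an immunoproteasome subunit, was at 30.6 and 12.4 CPM and HLA-F at 22.6 and 9.32 CPM, and MICB, a ligand of the NK cell receptor NKG2D, was at 58.0 and 117 CPM. CD74, the invariant chain of MHC class II, was at 43.5 and 8.72 CPM. IFITM3, an antiviral membrane protein, was lower at 53.9 and 15.1 CPM. Reads of HLA, MIC and IFITM genes can be shared among close copies, so their levels are uncertain.

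Cell junction genes stood lower. Tight junctions and desmosomes seal epithelial sheets. TJP3, a scaffold of the tight junction, was at 21.6 and 4.82 CPM, a ratio of 0.223 (0.184 to 0.269). The claudin CLDN7 was at 10.3 and 2.21 CPM, cingulin, CGN, at 65.2 and 23.0 CPM, and P-cadherin, CDH3, at 154 and 52.3 CPM. Of 37 genes 7 were lower and 0 higher. The median was −0.46, against −0.15 for genes of like level, and it was −0.25 both under TMM scaling and when centred on level. CLDN11, a claudin better known from myelin and testis and outside that list, was at 45.8 and 7.03 CPM, and in PC-3 at 141 and 14.3 CPM.

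The keratins and squamous genes diverged. Of 9 measured keratins 2 were higher and 1 lower, and 3 of the 9 lay above genes of like level. The keratin median was −0.33, against 0.09 for genes of like level. It was −0.11 under TMM scaling and −0.42 when centred on level. The abundant KRT7, at 1204 and 875 CPM, KRT80, at 216 and 137 CPM, and KRT18, at 199 and 159 CPM, were short of 2-fold. KRT19 and KRT15, keratins of simple and of basal epithelium, were higher, at 251 and 516 CPM and at 3.88 and 10.7 CPM. KRT81, a hair keratin, was lower, at 34.7 and 11.7 CPM, with KRT86 at 9.89 and 4.71 CPM, and since these are close in sequence their reads may be shared. Sciellin, SCEL, a precursor of the cornified envelope, was at 16.7 and 71.4 CPM, a ratio of 4.28 (3.87 to 4.75). S100A9, the partner of S100A8 in calprotectin, was lower at 12.8 and 2.14 CPM, while S100A6 was higher at 233 and 574 CPM. Dermokine, DMKN, another gene of differentiating skin, was at 115 and 21.7 CPM.

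Matrix components stood lower, while matrix proteases had no shared direction. Basement membrane and fibrillar components were lower in 8 of 37 cases and higher in 0, with a median of −0.41 against −0.07 for genes of like level. Fibronectin, FN1, was at 67.7 and 25.5 CPM, fibulin-1, FBLN1, at 36.1 and 10.1 CPM and nidogen-1, NID1, at 123 and 57.7 CPM. The median was −0.19 under TMM scaling. Matrix proteases and their inhibitors had 3 higher and 4 lower of 25 and a median of −0.01. The collagenase MMP1 was at 5.11 and 34.9 CPM, a ratio of 6.82 (5.72 to 8.20), and stood at 1.26 and 13.7 CPM in PC-3. The inhibitor TIMP1 was at 55.2 and 122 CPM and ADAM12 at 4.28 and 9.95 CPM, while MMP15 was lower at 96.3 and 45.0 CPM. ITGA2, the collagen-binding integrin chain, was higher at 187 and 497 CPM, and ITGA7, a laminin-binding chain, lower at 19.0 and 7.91 CPM. CEMIP, which drives hyaluronan breakdown, was at 38.1 and 124 CPM. None of 40 actin and myosin genes and none of 26 tubulin genes passed 2-fold, with medians of 0.14 and −0.10.

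**Figure D4:**
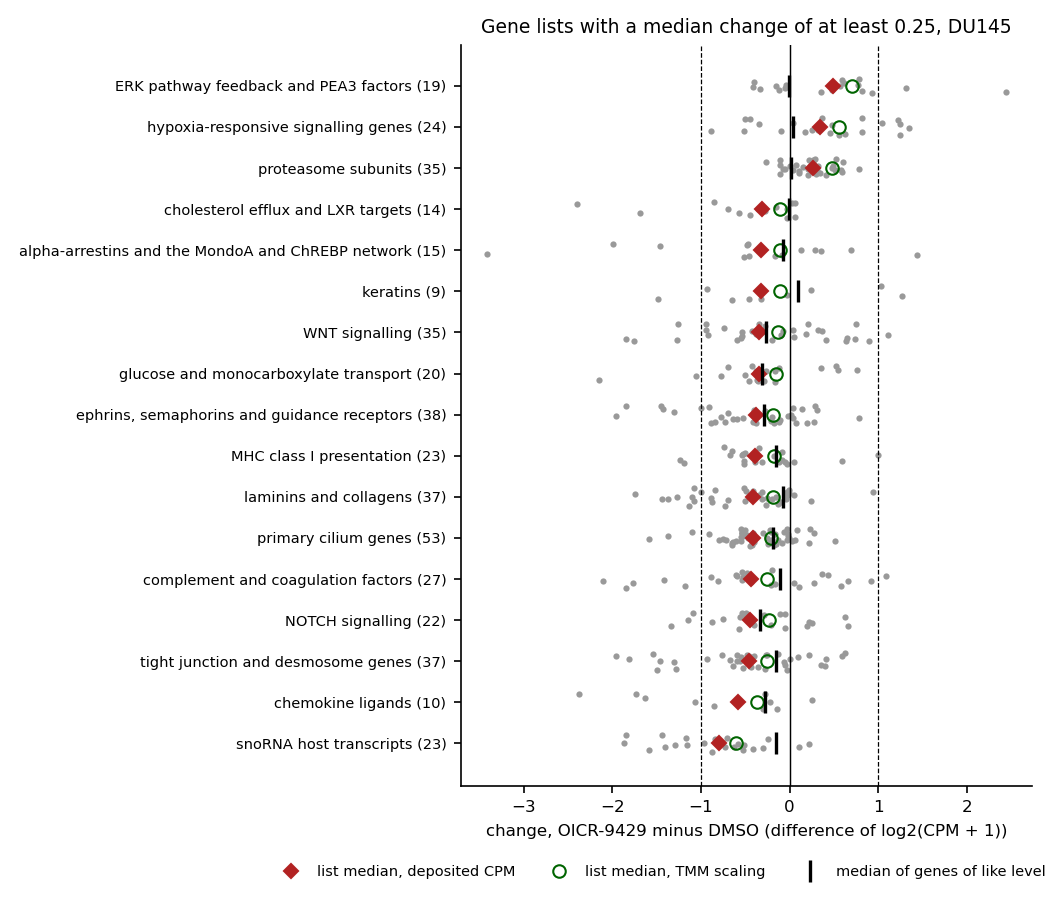
Change of each measured member (grey points) for the 17 gene lists whose median was at least 0.25 from 0, with the number of members in parentheses. Red diamonds are list medians on the deposited scale, green circles the same under TMM scaling and black bars the median of genes of like level. The ERK feedback list lies farthest right, at 0.49, and the snoRNA host transcripts farthest left, at −0.80. Cytosolic ribosomal protein genes were counted apart and are not drawn.

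Transcripts that carry small nucleolar RNAs in their introns had a lower median than any list described above. Genes for proteins of the large ribosomal subunit, counted apart from the lists and described below, lay lower still, at −1.02. The spliced exons of these hosts are mostly noncoding, and many hosts begin with the same pyrimidine-rich start as ribosomal protein genes. SNHG1 was at 304 CPM in the DMSO library and 82.7 CPM in the treated library, a ratio of 0.272 (0.259 to 0.284). SNHG15 was at 67.7 and 18.1 CPM, SNHG8 at 50.4 and 16.1 CPM and GAS5 at 443 and 196 CPM. Of 23 measured hosts 8 were lower and 0 higher, against the background of 8.01% lower. The median was −0.80, against −0.15 for genes of like level, −0.60 under TMM scaling and −0.57 when centred on level. Summed over the list, the CPM with OICR-9429 was 0.507 times that with DMSO. NEAT1, a nuclear noncoding RNA that scaffolds paraspeckles, was at 830 and 367 CPM.

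Cytosolic ribosomal protein genes and the elongation factor EEF2 stood lower. Of 46 genes for proteins of the large subunit 25 were lower and 0 higher, with a median of −1.02, against 0.12 for genes of like level. Under TMM scaling 14 were lower and the median was −0.82. RPL37 was at 857 and 280 CPM and RPL3, the most abundant of the 25, at 1829 and 849 CPM. Of 31 genes for the small subunit 10 were lower and 0 higher, with a median of −0.52, which TMM scaling moved to −0.30 with 4 lower. RPS18 was at 975 and 415 CPM, while RPSA and RPS26 lay on the other side, at 564 and 696 CPM and at 114 and 168 CPM. In PC-3 RPL37 was at 206 and 254 CPM, and the medians of the subunits were 0.22 and 0.29. Processed pseudogenes share reads with these genes, so their levels are uncertain. EEF2 was the most abundant gene that passed 2-fold, at 3805 and 1817 CPM, a ratio of 0.477 (0.472 to 0.482). It was the 1 lower gene among 51 initiation and elongation factors, and the list median was −0.06. The eIF3 subunit EIF3D and the elongation factor EEF1A2 came next, at 219 and 135 CPM and at 402 and 251 CPM. In PC-3 EEF2 was at 1473 and 2115 CPM. None of 50 genes of ribosome biogenesis and RNA polymerase I passed 2-fold, with a median of −0.12, and none of 77 mitochondrial ribosomal proteins did, with a median of −0.23. Of 56 splicing factors the epithelial regulator ESRP1 and SRSF12 were lower, at 11.6 and 4.54 CPM and at 10.8 and 4.68 CPM, and the list median was −0.04.

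Proteasome subunits stood slightly higher. None of 35 passed 2-fold, but 30 lay above genes of like level. The median was 0.27, against 0.02, and was 0.48 under TMM scaling and 0.22 when centred on level. Of the large scaffold subunits of the regulatory particle, PSMD1 was at 90.6 and 157 CPM and PSMD2 at 412 and 619 CPM. The chaperonin genes had a median of 0.02, with CCT7 at 306 and 171 CPM. Genes of the unfolded protein response had a median of 0.06 over 35, and the 1 higher was SEC24D, a coat protein of transport vesicles, at 42.3 and 88.1 CPM. HSPA8, the constitutive cytosolic HSP70, was higher at 257 and 646 CPM.

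Stress and detoxification genes held single large differences. CDKN1A, the p21 inhibitor of cyclin-dependent kinases, was at 91.3 and 268 CPM, a ratio of 2.93 (2.80 to 3.07). It was the 1 higher gene among 30 p53-responsive genes, of which 0 were lower. Their median was 0.02, against −0.17 for genes of like level. GPX4, which removes lipid peroxides, was lower at 320 and 146 CPM, and the transferrin receptor TFRC was at 372 and 688 CPM. In the list of AhR targets and xenobiotic enzymes 4 of 34 were lower and 1 higher. The vitamin D hydroxylase CYP24A1 was at 45.2 and 15.0 CPM, the glutathione transferase GSTM2 at 8.92 and 1.62 CPM and CYP2S1 at 39.8 and 17.3 CPM, and the higher gene NQO1 was at 454 and 978 CPM. Metallothioneins MT1F and MT1M were lower, at 11.7 and 4.32 CPM and at 5.84 and 2.004 CPM. Their list of 25 metallothioneins and zinc transporters had 4 lower and 0 higher, and 0 lower when centred on level. The list median was −0.11, against −0.07 for genes of like level, and its summed CPM with OICR-9429 was 0.991 times that with DMSO. Metallothioneins and GSTM2 have close copies in the genome, so their levels are uncertain.

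The lists of chromatin and lineage genes showed small shifts. Among 53 histone methyltransferases and demethylases 1 was higher, SETD7 at 108 and 225 CPM, and 1 lower, KDM4D at 7.68 and 2.18 CPM, with a median of 0.05. NSD2, a histone H3 lysine 36 methyltransferase, was at 486 and 262 CPM. Of 27 measured HOX genes, classic targets of MLL1, HOXA2 was lower at 5.22 and 1.23 CPM, and the list median was −0.16, above the −0.37 of genes of like level. HOXB9, at 73.8 and 42.3 CPM, was short of 2-fold. Nuclear receptors had a median of −0.07 over 31. The lineage factors RUNX2 and ONECUT2 were lower, at 6.16 and 2.50 CPM and at 4.42 and 1.16 CPM, while FOXA1 was at 62.9 and 76.0 CPM and SOX9 at 15.0 and 24.0 CPM. TERT, the catalytic part of telomerase, was at 10.8 and 1.48 CPM, a ratio of 0.137 (0.0965 to 0.189).

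Several of the most changed genes belonged to no list. SUSD2, a surface protein of epithelial and stem cells, was at 131 CPM in the DMSO library and 16.7 CPM in the treated library, a ratio of 0.128 (0.116 to 0.140). PADI2, a peptidylarginine deiminase, was at 20.6 and 2.39 CPM, CBLC, a ubiquitin ligase of epithelia, at 39.9 and 6.996 CPM, and FLOT1, a membrane scaffold, at 304 and 76.6 CPM. PHLDA2, an imprinted gene of placental growth, was at 19.2 and 90.6 CPM and NTSR1, the neurotensin receptor, at 2.21 and 7.59 CPM. AHNAK2, a very large scaffold protein, was at 392 and 962 CPM. FLOT1, AHNAK2, CD74, NEAT1, GAS5, LDHA, PGK1, CCND1, EGFR and ABCA1 among the genes above, and members named to complete a count, were chosen after their values were seen.

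In all, 55 lists were computed beside the markers. By the rule of 0.25 on the deposited scale 14 had a lower median, 3 a higher one and 38 no direction. Under TMM scaling 4 were lower and 15 higher. Among these lists, the snoRNA hosts, the chemokine ligands and the tight junction and desmosome genes stayed lower both under TMM scaling and when centred on level. The ERK feedback and hypoxia-responsive genes stayed higher under both. Ribosomal protein genes, counted apart from the 55 lists, stayed lower under both as well. Their medians were −0.82 under TMM scaling and −1.08 when centred for the large subunit, and −0.30 and −0.46 for the small subunit.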

How the data were processed

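Total RNA of 1 library per group was sequenced. The authors deposited gene values in CPM, per the file headers, under Ensembl identifiers. Tools named in the submitters' processing notes, without their roles, are HISAT2 2.1.0, HTSeq 0.6.1, bcl2fastq 2.19.1 and the build hg19. Neither annotation nor strand setting is given in the sources at hand, so overlapping, antisense and duplicated genes are uncertain. CPM values were whole multiples of 1 step per library (99.99% within 0.01 step), which returned whole reads. These were even, except values of 1 step (111 and 519), which were taken as 0. Intervals therefore use read pairs. A count of 3 pairs is 0.109 CPM with DMSO and 0.105 with OICR-9429. Unlisted genes carry no value, and a count test had no residual degrees of freedom. PCR copies cannot be told apart, so intervals cover counting error only.

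Changes used a pseudocount of 1 CPM and a minimum of 1 CPM in the higher library. TMM was computed on the DU145 pair with edgeR 4.0.16, and like-level medians over 20 bins of mean CPM, with pandas 2.3.3, Python 3.11.15 and scipy 1.17.1. GENCODE 29 and RefSeq served for names (25181 of 25338 identifiers), transcript length and GC content (99.4%), and promoters. No coordinate of the files is given, since their build differs. Steps were tested on simulated data. Genes named were the 25 highest and 25 lowest at 5 CPM or more outside cell division and sterol synthesis, up to 6 members per list and 4 per symbol family, and WDR5 and CD274. Members and lists were chosen with earlier results of these data known. Alternatives were centring by level, a minimum of 5 CPM or none, 0.1 as the pseudocount, and scaling by the median of ratios. Some genes and lists are not reported here.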

Additional observations from a re-analysis of the deposited data

Results flagged for a closer look

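For 7 lists the median changes in DU145 and PC-3 on the deposited scale lay on opposite sides of 0, both at least 0.25 from it. The difference was not tested, since each line had 1 library a side and dose and medium differed with the line. NOTCH signalling had a median of −0.44 in DU145 and 0.29 in PC-3. For the alpha-arrestin, MondoA and ChREBP network these were −0.32 and 0.62, for cholesterol efflux and LXR targets −0.31 and 0.34, and for chemokine ligands −0.58 and 0.29. Complement and coagulation factors had −0.43 and 0.33, MHC class I presentation −0.39 and 0.94, and proteasome subunits 0.27 and −0.57. TMM scaling, computed for DU145 alone, brought some DU145 medians within 0.25 of 0. These were NOTCH at −0.24, the MondoA network at −0.10, LXR targets at −0.11 and MHC class I at −0.17. The chemokine, complement and proteasome medians stayed past 0.25, at −0.37, −0.26 and 0.48.

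Of the 478 genes chosen to be named, 209 were past 2-fold in DU145. Among these, 16 stood past 2-fold in opposite directions in the lines, likewise untested, of which 5 were higher in DU145. The genes were chosen largely for the size of their change in DU145. The share over all measured genes, and the count past 2-fold in the same direction, are not given, so 16 cannot be called many or few. MMP1 and CDKN1A, for example, were higher in both lines. SCEL had a log2 change of 2.04 in DU145 and −1.91 in PC-3, where it was at 4.37 and 0.432 CPM. For G0S2 these were 1.47 and −1.28, for CPA4, a carboxypeptidase, 1.44 and −2.95, and for CCL20 −2.38 and 1.04. CPA4 was at 2.83 and 9.39 CPM in DU145 and at 45.2 and 4.96 CPM in PC-3. FGFBP1, a growth factor carrier, had 1.24 and −1.08 and ACOX2 had 1.03 and −1.72. The complement proteases C1S and C1R had −1.85 and 2.30, and −1.42 and 1.40. For the antigen presentation genes HLA-F and PSMB9 the changes were −1.19 and 1.40, and −1.24 and 1.38, for IFITM3 −1.77 and 1.17, and for the cytokine IL6 −1.29 and 1.20. The rest were DBP at −1.24 and 1.12, ESRP1 at −1.19 and 1.04, the amino acid transporter SLC7A2 at −1.13 and 1.19, and ARHGAP4 at −1.15 and 1.05.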

How the results depend on the processing

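No paired analysis was possible because each group had 1 library and the replicate numbers were given in accession order. The count of 161 higher genes was 317 under TMM scaling, 330 under median-of-ratios scaling, 275 with a pseudocount of 0.1 and 359 when centred by level. That of 1291 lower genes was 832 under median-of-ratios scaling, 2365 with a pseudocount of 0.1 and 616 when centred. With a minimum of 5 CPM the counts were 136 and 878. Scaling shifts all genes in 1 direction, but weak genes by less because of the pseudocount, and a smaller pseudocount widens the changes of weak genes. On centring, the medians of WNT signalling and of glucose and monocarboxylate transport turned to 0.068 and 0.012. Of 19 list medians with a direction (2 of them cell division and sterol synthesis), 9 passed 0.25 in that direction under TMM scaling and 10 when centred. Of 209 named genes past 2-fold, 176 were past it under TMM scaling and 161 when centred.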

Other observations

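Families of genes that share a symbol stem gave a further view of the 16120 measured genes. Zinc finger genes, the largest family, had 17 of 446 lower and 1 higher, with a median of −0.23 against −0.34 for genes of like level. Solute carriers had 19 of 249 lower and 2 higher, and a median of −0.11. Potassium channel genes were lower in 9 of 38 cases, among them KCNH2, the cardiac repolarising channel, at 10.8 and 3.20 CPM, and KCNJ11, a subunit of the ATP-sensitive channel, at 8.92 and 2.07 CPM. Their median was −0.44, against −0.40 for genes of like level. Genes of the GPR stem had 9 of 41 lower and 0 higher, with GPRC5B at 22.7 and 5.73 CPM, and a median of −0.55 against −0.33. That stem holds more than orphan receptors, since the lower genes GPRASP1 and GPRIN2 do not encode receptors. Intergenic noncoding RNAs with LINC names had 37 of 233 lower and 2 higher, with a median of −0.57 against −0.37.

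Of 77 genes of the RAB stem 4 were lower, with RAB17, a GTPase of epithelial transport, at 14.9 and 4.75 CPM, and the median was 0.05. Ubiquitin proteases of the USP stem had 0 of 50 past 2-fold and a median of 0.05. The S100 genes had a median of 0.27 over 10. FAM72A, FAM72B, FAM72C and FAM72D are near-identical copies, so the split of their reads is uncertain, and all stood lower, from 26.0 to 4.11 CPM for FAM72A and from 34.9 to 4.64 CPM for FAM72B.

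Further lists had medians within 0.25 of 0. Sphingolipid genes had 1 higher and 2 lower of 31, with SMPD3, a neutral sphingomyelinase, at 10.5 and 3.62 CPM, and a median of 0.13. Iron and ferroptosis genes had 0 higher and 2 lower of 25 and a median of 0.19. Circadian clock genes had 1 higher and 2 lower of 21, with the output factor DBP at 5.33 and 1.69 CPM and the activator NPAS2 at 17.5 and 32.1 CPM, and a median of 0.11. Mucins and glycan-building enzymes had 0 higher and 2 lower of 39, with MUC16, the CA125 antigen, at 7.18 and 2.29 CPM and MUC1 at 42.6 and 20.9 CPM, and a median of −0.04. None of 15 mitochondrially encoded genes passed 2-fold, and their median was −0.09.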
